A study of Homo sapiens with 6 samples.

Results

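The genes described here encode the enzymes that build cholesterol and fatty acids, with the regulators that set their transcription, in MCF10A cells with and without C/EBPbeta-2. The set was 31 genes, chosen by their place in these pathways but with earlier results of these data known. A gene was read where a probe set carried its symbol and no other, at the probe set with the highest mean over the arrays, and 28 of the 31 were read this way among 19775 genes. CYP51A1 and FADS1, whose probe sets carry a further symbol, and FDFT1 were not analysed here. The 28 genes had 63 probe sets of their own.

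MCF10A is an established line of non-tumorigenic human mammary epithelial cells, and C/EBPbeta-2 is a protein form of C/EBPbeta, a transcription factor made from the gene CEBPB. RNA of 3 samples with C/EBPbeta-2 and 3 samples of MCF10A cells alone, called control, was hybridised to 6 expression arrays. Both groups shared 1 medium, which held 5% horse serum, 10 µg/ml insulin, 100 ng/ml cholera toxin, 0.5 µg/ml hydrocortisone and epidermal growth factor at 10 ng/ml. Each group's 3 samples are labelled as biological replicates, but whether they were separate cultures is not said, and p-values here reflect only how much these samples varied. The means of introducing C/EBPbeta-2, the use of a clone or a pool, and the presence of an empty vector in the control are not given in the sources used here. On bulk RNA of this kind, fewer cells that use a gene and less RNA per cell cannot be told apart.

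Cells make cholesterol from acetyl-CoA through mevalonate, farnesyl pyrophosphate, squalene and lanosterol. They make fatty acids from the same precursor by chain building, elongation and desaturation. Both routes are driven by the SREBP transcription factors, which are held in the endoplasmic reticulum with SCAP and INSIG proteins while sterols are plentiful and are released and cleaved when sterols are short. Insulin raises SREBF1 activity in many tissues, and mammary epithelium uses these pathways heavily during milk fat production.

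All values are log2 of the deposited array intensity, and differences are C/EBPbeta-2 minus control. CEBPB itself read 10.29, 10.50 and 11.38 with C/EBPbeta-2 and 11.27, 11.38 and 11.37 in control. The difference was -0.62 (limma adjusted p = 1.00), and since the position of its probes against the introduced sequence is unknown here, CEBPB does not check the labels. C/EBPbeta-2 replicate 2 and control replicate 1 stood apart, with poly-A spike-in control RNA at 3.85 to 3.98 against 7.21 to 8.25 on the other 4 arrays and ACTB control probe sets that read 1.32 to 1.48 higher at the 3' end than at the 5' end against -0.04 to 0.64. Each group held 1 array of low and 2 of high spike-in signal. All 8 measured markers of mammary epithelium lay above the array median on all 6 arrays, with list means of 10.00 to 10.38 with C/EBPbeta-2 and 10.51 to 10.93 in control, where array medians were 4.46 to 4.56. CDH1 and KRT14 were the 2 called among them, and both were lower with C/EBPbeta-2. CDH1 differed by -2.14 (limma adjusted p = 0.025) and KRT14 by -3.005 (limma adjusted p = 0.030). The adipocyte list, a cell type rich in these enzymes, averaged 4.12 to 4.49 and 3.92 to 4.05 over 5 markers, 2 of them above the array median on all 6 arrays, with ADIPOQ at 2.88 to 3.90. Fibroblast markers averaged 4.65 to 5.13 and 4.98 to 5.41 (2 of 6 genes above the median), leukocyte markers 4.50 to 4.75 and 4.33 to 4.44 (1 of 4), endothelial markers 3.92 to 4.02 and 3.93 to 4.31 (1 of 3) and hepatocyte markers 4.45 to 4.64 and 4.30 to 4.76 (1 of 3), and 0 genes of these lists were called. Within the fibroblast list DCN read 8.16, 7.38 and 7.11 with C/EBPbeta-2 and 11.76, 9.74 and 8.98 in control. The DCN difference was -2.61 (limma adjusted p = 0.417). FABP4 of the adipocyte list read 3.84, 6.11 and 3.84 with C/EBPbeta-2 and 3.41, 3.42 and 3.15 in control. The part of other cell types in the results was not tested.

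The control regions of these genes show what the pathway shares. RefSeq promoter windows on GRCh38.p14 were found for 26 of the 28 genes, 38 windows of 250 bases before a start site, and searched on both strands. The CCAAT box, bound by the factor NF-Y that works beside SREBP (CCAAT, or ATTGG on the other strand), was in 24 of the 38 windows, 63.2%, and in 32.0% of 35116 windows of all genes. At least 1 window of 20 of the 26 genes held it. A gene with several windows has more chances to do so, and the same share over all genes was not computed. The sterol element (TCACNCCAC) was in 1 window, that of SREBF2, and in 0.883% of all windows. Only this spelling was searched, so a sterol element spelled otherwise or lying outside the window was not counted. FASN and SQLE had no window. A C/EBP core motif (TTGCNNAA) was in 2 windows, those of NSDHL and SCAP, 5.26% against 9.05% of all windows, and the E-box CACGTG was in 4 windows, 10.5% against 6.34%. Windows of 1 gene can overlap, and a match of letters shows neither binding nor a cause.

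The windows printed next are 5′ to 3′ on the gene's own strand, with every match to the 4 motifs in capitals. SREBF2 is shown for its sterol element and CCAAT box at chr22:41832855-41833104 (plus strand). HMGCS1, at chr5:43313413-43313662 (minus strand), and INSIG1, at chr7:155297628-155297877 (plus strand), are shown for their order of arrays in the results that follow. At the probe sets read here both were highest on replicate 2 and lowest on replicate 3 of each group. Control replicates 1 and 2 were nearly equal for INSIG1. At 221750_at of HMGCS1 and 201625_s_at of INSIG1 the order was another. NSDHL, at chrX:152830813-152831062 (plus strand), and SCAP, at chr3:47475942-47476191 (minus strand), are shown for their C/EBP cores, which in NSDHL overlaps a CCAAT box.
SREBF2: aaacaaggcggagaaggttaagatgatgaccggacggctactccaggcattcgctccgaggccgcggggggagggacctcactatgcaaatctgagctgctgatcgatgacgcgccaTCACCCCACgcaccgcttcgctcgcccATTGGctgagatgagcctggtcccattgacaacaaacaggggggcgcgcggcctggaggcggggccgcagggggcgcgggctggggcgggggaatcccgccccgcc
HMGCS1: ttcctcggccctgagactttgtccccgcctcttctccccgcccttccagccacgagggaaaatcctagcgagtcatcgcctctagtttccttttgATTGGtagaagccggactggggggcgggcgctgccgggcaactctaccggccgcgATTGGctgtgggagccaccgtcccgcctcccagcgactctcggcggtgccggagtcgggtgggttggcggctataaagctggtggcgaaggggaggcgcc
INSIG1: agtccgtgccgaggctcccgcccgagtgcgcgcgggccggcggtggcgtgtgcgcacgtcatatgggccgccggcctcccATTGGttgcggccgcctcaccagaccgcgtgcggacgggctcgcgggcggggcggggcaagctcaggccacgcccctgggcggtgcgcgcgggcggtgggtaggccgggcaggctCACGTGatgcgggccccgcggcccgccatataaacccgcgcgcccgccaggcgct
NSDHL: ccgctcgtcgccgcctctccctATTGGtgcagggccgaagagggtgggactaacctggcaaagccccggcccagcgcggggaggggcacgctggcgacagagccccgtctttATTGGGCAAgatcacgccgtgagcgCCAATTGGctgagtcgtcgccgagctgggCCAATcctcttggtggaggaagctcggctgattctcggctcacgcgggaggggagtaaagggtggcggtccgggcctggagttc
SCAP: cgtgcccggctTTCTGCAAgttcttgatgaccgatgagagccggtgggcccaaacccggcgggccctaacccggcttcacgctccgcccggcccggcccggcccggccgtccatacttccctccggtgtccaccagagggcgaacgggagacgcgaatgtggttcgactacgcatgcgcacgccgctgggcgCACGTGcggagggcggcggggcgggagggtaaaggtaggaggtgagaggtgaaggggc

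No gene of sterol or fatty acid synthesis was called between the groups. Of the 28 genes, 0 rose and 0 fell at an adjusted p under 0.05 in limma, where 0.273% of all genes were called (18 rose, 0.091%, and 36 fell, 0.182%), and 0 of the 28 had an unadjusted p under 0.05, which 5.17% of all genes had. The differences ran from -0.53 for ELOVL6 to 0.42 for EBP, with a median of -0.15 against 0.01 over all genes. The difference lay below 0 for 20 of the 28, where 48.1% of all genes lay below 0. The groups did not overlap for 1 gene, ACLY, where 8.63% of all genes did not overlap.

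The intervals show how large a difference these arrays leave possible. The 95% interval of the difference stayed within 2-fold in either direction for 17 of the 28 genes, where 71.9% of all genes stayed within it. It stayed within 1.5-fold for 4 of the 28, and for 5661 of all 19775 genes. It reached past 2-fold for HMGCS1, LSS, EBP, SCAP, INSIG1, ACSS2, ACACA, FASN, ELOVL6, FADS2 and LPIN1. For those genes a 2-fold difference was not excluded by the interval, and the absence of a call does not show equal levels. The sterol enzymes had a median difference of -0.05 over 15 genes, the regulators and the sterol carrier -0.16 over 5 and the fatty acid genes -0.33 over 8. The fatty acid median was -0.093 without C/EBPbeta-2 replicate 1, and the sterol enzyme median was -0.19 without control replicate 3. Whether these medians differ was not tested. Leaving out 1 array or another turned the difference or moved it by over 1.5 times for all 28 genes, as it did for 91.8% of all genes.

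**Figure D1:**
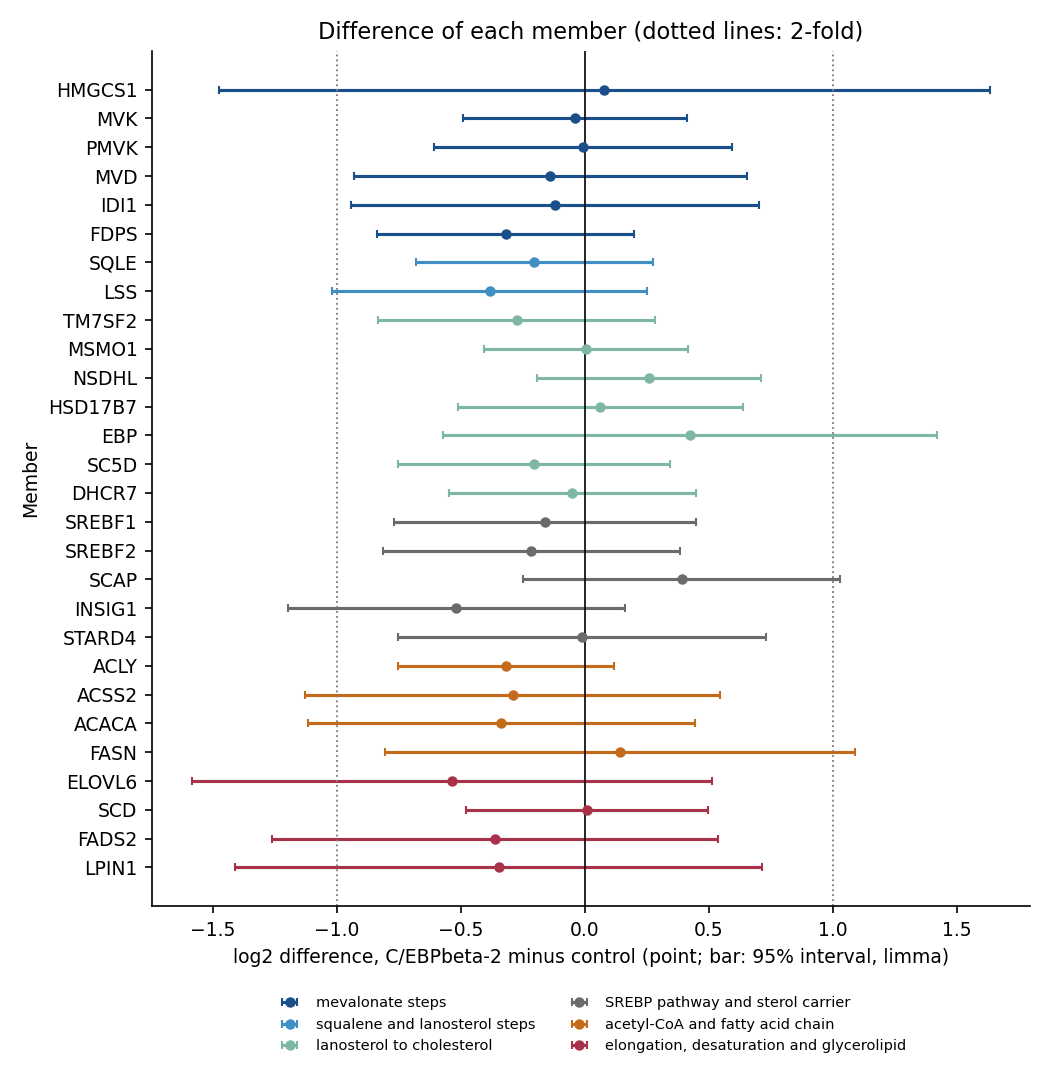
Log2 difference (C/EBPbeta-2 minus control) of each of the 28 genes, as a point with its 95% interval from limma (3 arrays per group), in the colour of its role, with dotted lines at a 2-fold difference. Every interval crosses 0, and the widest is that of HMGCS1, from -1.48 to 1.63.

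Among the 6 enzymes from HMG-CoA formation to farnesyl pyrophosphate, 0 of 6 passed the test and 5 of 6 differences were below 0, with a median of -0.08. HMGCS1, which joins acetyl-CoA to acetoacetyl-CoA at the head of the mevalonate route, read 8.45, 9.60 and 7.56 on the C/EBPbeta-2 arrays and 8.87, 9.21 and 7.30 on the control arrays. It was lowest on replicate 3 of each group and its groups overlapped over nearly their whole range. The difference was 0.08 (SE 0.65, limma adjusted p = 1.00). At its other probe set, 221750_at, HMGCS1 read 8.19, 9.19 and 8.53 against 8.67, 8.07 and 8.11, so the low values of replicate 3 were those of probe set 205822_s_at.

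IDI1, the isomerase that makes dimethylallyl pyrophosphate, read 10.47, 11.04 and 10.06 with C/EBPbeta-2 and 10.83, 11.04 and 10.06 in control. Replicate 3 was again the lowest array of each group. The difference was -0.12 (SE 0.35, limma adjusted p = 1.00), and 0.11 without C/EBPbeta-2 replicate 3 and 0.077 without control replicate 2. IDI1 was read at 208881_x_at, whose probes can share signal with related transcripts, and its probe set 204615_x_at gave the same order of replicate 3, 9.62 against 10.08 and 10.59 with C/EBPbeta-2 and 9.65 against 10.51 and 10.62 in control.

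FDPS, which condenses these units into farnesyl pyrophosphate, read 11.29, 11.40 and 11.82 with C/EBPbeta-2 and 11.73, 12.09 and 11.65 in control. Of the C/EBPbeta-2 values, 2 lay below every control value and the other lay among them. The difference was -0.32 (SE 0.22, interval -0.84 to 0.20, limma adjusted p = 1.00). MVD, which decarboxylates the activated mevalonate, read 6.82, 6.14 and 6.81 with C/EBPbeta-2 and 6.46, 7.36 and 6.36 in control. The MVD difference was -0.14 (limma adjusted p = 1.00), and it was 0.087 without C/EBPbeta-2 replicate 2 and 0.18 without control replicate 2.

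The kinases of mevalonate had the smallest differences of these 6 enzymes. MVK read 8.20, 7.82 and 8.17 with C/EBPbeta-2 and 7.90, 8.22 and 8.18 in control, a difference of -0.04 with an interval of -0.49 to 0.41. PMVK, the next kinase, read 8.82, 8.24 and 8.84 against 8.28, 8.86 and 8.78, a difference of -0.01 with an interval of -0.61 to 0.59. The low array of each group, for both kinases, was the one with low spike-in signal.

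SQLE, the epoxidase that commits squalene to sterols, read 10.55, 10.89 and 10.27 with C/EBPbeta-2 and 10.72, 10.80 and 10.79 in control. Its control values lay close together (SD 0.04, n = 3) and inside the span of the C/EBPbeta-2 values, with a difference of -0.20 (SE 0.20, limma adjusted p = 1.00). LSS, which closes the ring system to give lanosterol, read 9.34, 9.005 and 9.60 against 9.46, 10.17 and 9.47. Its difference was -0.38 (SE 0.27, interval -1.02 to 0.25, limma adjusted p = 1.00). Probe set 211019_s_at of LSS read 5.85, 5.64 and 5.67 against 6.32, 6.86 and 5.998, with all C/EBPbeta-2 values below the control values. Of the 63 probe sets of the 28 genes, only this 1 had an unadjusted limma p under 0.05 (difference -0.67, limma adjusted p = 1.00 over all probe sets). Neither enzyme of this step passed the test.

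Of the 7 measured enzymes that turn lanosterol into cholesterol, 0 passed the test, and 4 differences lay above 0 and 3 below, with a median near 0. EBP, the sterol isomerase also known as the emopamil binding protein, had the highest difference of all 28 genes. It read 11.28, 10.26 and 10.72 with C/EBPbeta-2 and 10.32, 11.06 and 9.61 in control, and the groups overlapped (difference 0.42, SE 0.42, limma adjusted p = 1.00). Within the arrays of low spike-in signal the EBP difference was -0.06, and within those of high signal it was 0.67. It was 0.062 without control replicate 3, 0.16 without C/EBPbeta-2 replicate 1 and 0.79 without control replicate 2.

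NSDHL, the dehydrogenase that helps remove methyl groups from the ring and that carries a C/EBP core in its promoter window, read 8.20, 8.24 and 7.89 against 7.89, 8.02 and 7.63. Its values with C/EBPbeta-2 lay toward the upper end but overlapped control, and the difference was 0.26 (SE 0.19, limma adjusted p = 1.00). At its other probe set, 209279_s_at, NSDHL read 8.18, 7.67 and 7.92 against 7.80, 8.14 and 7.61, a difference of 0.07. TM7SF2, a sterol reductase, read 6.27, 5.82 and 6.05 against 6.61, 6.42 and 5.93, a difference of -0.28 (SE 0.23, limma adjusted p = 1.00) that was -0.79 within the low spike-in arrays and -0.02 within the high ones.

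The other 4 enzymes of this stretch lay closer to 0. MSMO1, the methyl sterol oxidase, varied least of the 28 genes over the arrays, from 11.08 to 11.45, and differed by 0.00 (interval -0.41 to 0.42). DHCR7, the reductase of the last step, differed by -0.05 (interval -0.55 to 0.45), HSD17B7, a ketoreductase, by 0.06 (interval -0.51 to 0.64) and SC5D, a desaturase, by -0.21 (interval -0.75 to 0.34). None of these 4 intervals reached a 2-fold difference.

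The transcription factors behind the pathway did not pass the test. SREBF1, which favours fatty acid genes, read 6.91, 7.31 and 7.72 with C/EBPbeta-2 and 7.21, 7.50 and 7.72 in control, a difference of -0.16 (SE 0.26, limma adjusted p = 1.00) that was 0.041 without C/EBPbeta-2 replicate 1. SREBF2, which favours sterol genes, read 7.46, 7.23 and 7.92 against 7.55, 7.60 and 8.11, a difference of -0.22 (SE 0.25, limma adjusted p = 1.00). Both were highest on replicate 3 of each group, the arrays on which HMGCS1, IDI1 and INSIG1 were lowest.

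INSIG1, a direct SREBP target that retains SCAP and its cargo, had the smallest unadjusted p of the 28 genes, 0.114 in limma. It read 9.35, 9.71 and 8.99 with C/EBPbeta-2 and 10.11, 10.11 and 9.38 in control. The lowest control value fell among the C/EBPbeta-2 values and the other 2 lay above them all. The difference was -0.52 (SE 0.29, interval -1.20 to 0.16, limma adjusted p = 1.00), 1.43-fold lower with C/EBPbeta-2. It was -0.40 within the low spike-in arrays and -0.58 within the high ones. The other INSIG1 probe sets, 201625_s_at and 201627_s_at, differed by -0.34 and -0.77.

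SCAP, the escort of SREBP to the Golgi, read 8.69, 8.13 and 8.89 with C/EBPbeta-2 and 7.82, 8.26 and 8.46 in control. The C/EBPbeta-2 mean was above the control mean within each spike-in level, by 0.32 where the signal was low and by 0.43 where it was high. The pooled difference was 0.39 (SE 0.27, interval -0.25 to 1.03, limma adjusted p = 1.00). STARD4, a carrier of cholesterol between membranes, read 7.73, 8.54 and 7.75 against 8.36, 7.55 and 8.16 and differed by -0.01 (interval -0.75 to 0.73).

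Of the 4 genes that supply acetyl-CoA and build the fatty acid chain, 0 passed the test and 3 differences lay below 0, with a median of -0.30. ACLY, which splits citrate into acetyl-CoA, was the gene whose groups did not overlap. It read 10.74, 11.08 and 11.11 with C/EBPbeta-2 and 11.31, 11.43 and 11.14 in control, a gap so narrow that C/EBPbeta-2 replicate 3 and control replicate 3 nearly met. The difference was -0.32 (SE 0.18, interval -0.75 to 0.12, limma adjusted p = 1.00). All 3 ACLY probe sets were below 0, and at 201127_s_at and 210337_s_at the groups overlapped.

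ACSS2, which makes acetyl-CoA from acetate, read 7.998, 7.54 and 8.65 with C/EBPbeta-2 and 8.01, 8.17 and 8.88 in control, a difference of -0.29 (SE 0.35, limma adjusted p = 1.00). It ran from -0.59 without C/EBPbeta-2 replicate 3 to -0.029 without C/EBPbeta-2 replicate 2 or control replicate 3. ACACA, the carboxylase that makes malonyl-CoA, read 8.64, 9.17 and 9.57 against 9.61, 8.93 and 9.85, a difference of -0.34 (SE 0.33, limma adjusted p = 1.00) that ran from -0.60 without control replicate 2 to -0.095 without C/EBPbeta-2 replicate 1. FASN, the fatty acid synthase, read 8.36, 7.94 and 9.40 against 7.99, 8.71 and 8.57, a difference of 0.14 (SE 0.40, limma adjusted p = 1.00). Its highest value was on C/EBPbeta-2 replicate 3 and its lowest on the 2 arrays of low spike-in signal.

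Of the 4 measured genes of elongation, desaturation and glycerolipid synthesis, 0 passed the test and 3 differences lay below 0, with a median of -0.35. ELOVL6, which elongates palmitate, had the lowest difference of the 28 genes. It read 8.14, 9.67 and 9.28 with C/EBPbeta-2 and 10.00, 9.002 and 9.69 in control, with C/EBPbeta-2 replicate 1 well below the rest. The difference was -0.53 (SE 0.44, interval -1.58 to 0.51, limma adjusted p = 1.00), and -0.090 without that array. The other ELOVL6 probe sets, 210868_s_at and 227491_at, differed by -0.68 and -0.14, and C/EBPbeta-2 replicate 1 was the lowest array at both.

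SCD, the desaturase that makes oleate and palmitoleate, read 11.04, 11.29 and 11.48 with C/EBPbeta-2 and 11.00, 11.33 and 11.46 in control, lowest on replicate 1 and highest on replicate 3 of each group and nearly the same values. The SCD difference was 0.01 (interval -0.48 to 0.50). FADS2, which starts the desaturation of polyunsaturated fatty acids, read 7.15, 6.45 and 7.47 against 6.79, 7.97 and 7.39 and differed by -0.36 (SE 0.38, limma adjusted p = 1.00), by -0.065 without control replicate 2, by -0.073 without C/EBPbeta-2 replicate 2 and by -0.66 without control replicate 1. LPIN1, a phosphatidate phosphatase of triglyceride synthesis, read 9.61, 10.51 and 10.33 against 11.42, 9.82 and 10.24. Its difference of -0.35 (SE 0.45, limma adjusted p = 1.00) at 212274_at rested on control replicate 1 and was 0.12 without it. The other LPIN1 probe sets, 212272_at and 212276_at, differed by -0.77 and -0.49, and control replicate 1 was the highest array at both.

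From its lowest to its highest array HMGCS1 spanned 2.30, ELOVL6 1.86, LPIN1 1.81 and EBP 1.67, and the median span of the 28 genes was 0.93 against 0.79 over all genes. The arrays on which genes were jointly lowest or highest differed from gene to gene. Most often these were C/EBPbeta-2 replicate 2 and control replicate 1, the arrays of low spike-in signal, on which 9 genes (MVK, PMVK, LSS, DHCR7, SREBF2, SCAP, ACSS2, FASN and FADS2) were lowest of their group and 6 (MSMO1, HSD17B7, SC5D, STARD4, ELOVL6 and LPIN1) highest. On replicate 3 of both groups 4 genes (HMGCS1, IDI1, NSDHL and INSIG1) were lowest and 6 (SREBF1, SREBF2, SCAP, ACSS2, ACACA and SCD) highest. On C/EBPbeta-2 replicate 1 and control replicate 2, 6 genes were lowest and 4 highest, and on C/EBPbeta-2 replicate 3 and control replicate 2, 1 was lowest and 6 highest. On replicate 2 of both groups 0 genes were lowest and 5 (HMGCS1, IDI1, SQLE, NSDHL and INSIG1) highest. These orders are those of the probe set read for each gene, and another probe set, as for HMGCS1 and NSDHL, can give another order. With 3 arrays in each group and no label that ties the arrays to a culture or day, this order is a description.

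**Figure D2:**
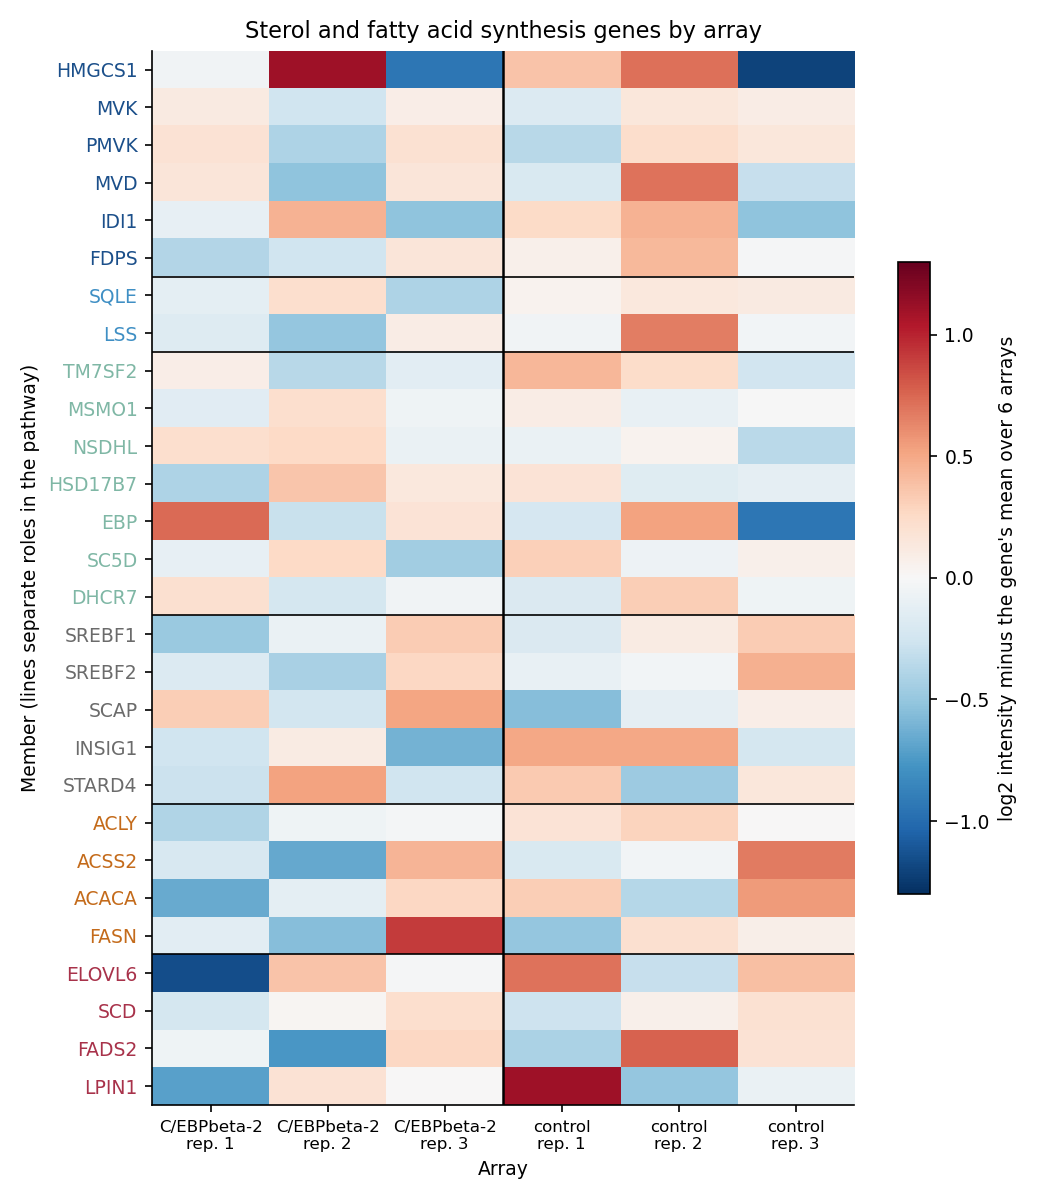
Log2 intensity of each gene minus its mean over the 6 arrays, red above and blue below (full colour at 1.3 or more), with genes in rows by role and arrays in columns by group. HMGCS1 is among the strongest colours, high on C/EBPbeta-2 replicate 2 and low on replicate 3 of both groups, and no row changes colour cleanly at the line between groups except the narrow step of ACLY.

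Part of this spread moved with the spike-in level. For 11 of the 28 genes the 2 arrays of low spike-in signal lay entirely above or below the other 4, where 29.1% of all genes did so. On those 2 arrays LPIN1 averaged 0.97 higher, STARD4 0.65 higher and SC5D 0.43 higher, while the same difference was -0.88 for FADS2, -0.79 for FASN, -0.60 for SCAP and -0.57 for PMVK. Each of these gaps was larger than the same gene's difference between C/EBPbeta-2 and control. The sign of the group difference was the same within both spike-in levels for 18 of the 28 genes, where 58.6% of all genes kept it. The part of RNA or labelling quality in these values was not tested.

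**Figure D3:**
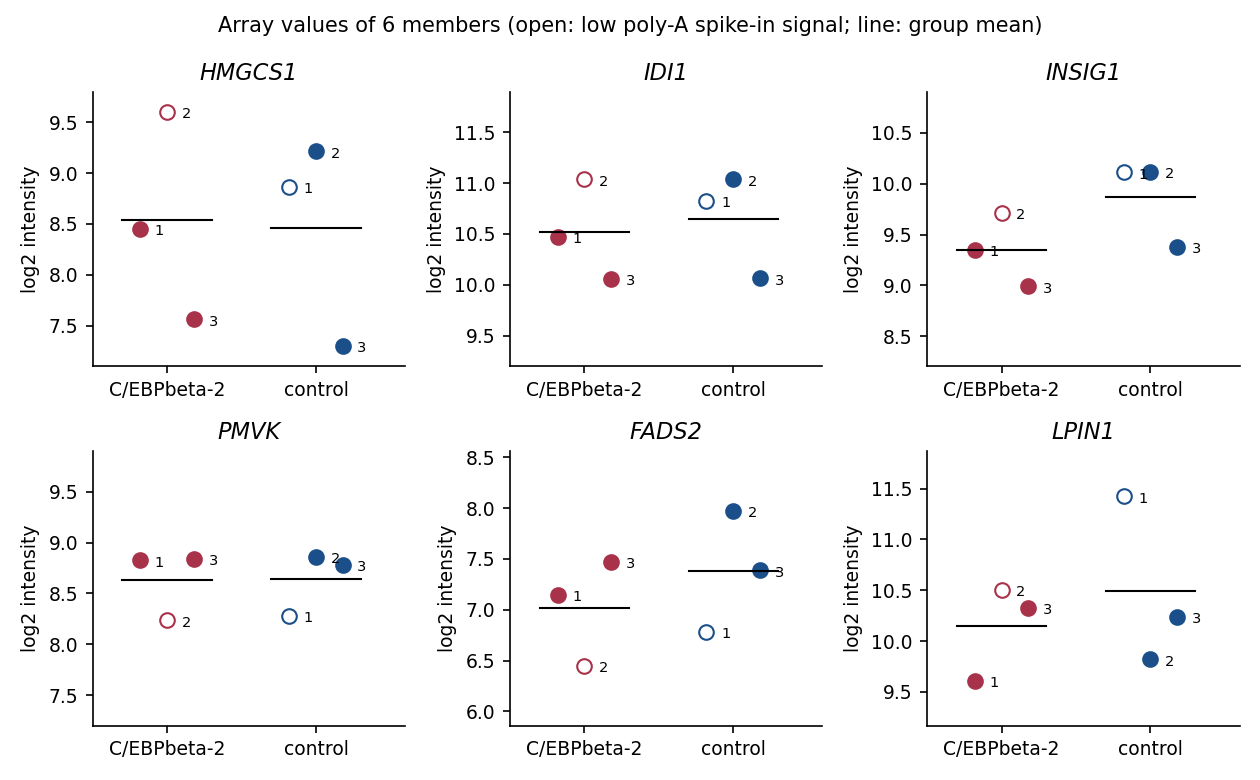
Log2 intensity of 6 genes on each array, by group, numbered by replicate, with open points for the 2 arrays of low spike-in signal and a line at each group mean. HMGCS1, IDI1 and INSIG1 are lowest on replicate 3 of both groups, and the open points lie lowest for PMVK and FADS2 and highest for LPIN1.

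Genes around the pathway were read from 5 further lists, and 0 of their 62 measured genes were called by limma in either direction. At an unadjusted p under 0.05 there were 9 of the 62, where 5.17% of all genes lay, and the groups did not overlap for 10, where 8.63% of all genes did not. The 9 were MYLIP, NCEH1, GGPS1, ELOVL5, FADS3, ACSL1, GPAM, DGAT2 and PPARG, and those named for this p alone were chosen after their values were seen. Among 5 other sterol synthesis genes 0 had such a p, and the largest differences were 0.28 for LBR, a sterol reductase of the nuclear envelope, and -0.27 for FAXDC2, a hydroxylase-domain protein. Among 9 genes of SREBP processing and sterol sensing 0 had such a p, with PAQR3, a Golgi anchor of SCAP, at 0.80 and MBTPS2, a protease that releases SREBP, at 0.38.

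Of 12 genes of sterol transport, storage and the LXR response, 2 had an unadjusted p under 0.05, NCEH1 and MYLIP, and the median difference was -0.03. NCEH1, a hydrolase of cholesterol esters, read 6.90, 7.95 and 8.25 with C/EBPbeta-2 and 6.32, 5.26 and 6.13 in control, a difference of 1.79 (SE 0.43, limma adjusted p = 0.309). All C/EBPbeta-2 values lay above all control values. MYLIP, a ubiquitin ligase that lowers lipoprotein uptake, differed by 0.80 (SE 0.24, limma adjusted p = 0.539). ABCG1, a sterol exporter, differed by -1.28 (SE 0.72, limma adjusted p = 1.00), with values of 3.40, 4.36 and 4.59 against 6.13, 3.72 and 6.36, of which 3 lay below every array median. The ABCG1 difference was -2.13 without control replicate 2, -0.81 without control replicate 3, -0.59 as the mean of its probe sets and -0.39 at a probe set that is neither _x_at nor _s_at. NPC2, which carries cholesterol in the lysosome, differed by -0.83 (SE 0.51, limma adjusted p = 1.00), and SOAT1, which esterifies cholesterol, and ABCA1, an exporter, differed by -0.00049 and 0.074. All ABCA1 values, from 3.16 to 3.68, lay below every array median, so its small difference does not show an unchanged level.

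GGPS1, which extends farnesyl pyrophosphate toward protein prenylation and away from sterols, had the smallest adjusted p of these lists. It read 9.22, 9.53 and 9.32 with C/EBPbeta-2 and 10.03, 10.10 and 10.15 in control, with no overlap, and differed by -0.74 (SE 0.16, limma adjusted p = 0.258). COQ2, which attaches the isoprenoid tail of coenzyme Q, differed by 0.52 (SE 0.22, limma adjusted p = 0.979). Of the 10 genes of non-sterol isoprenoids, 1 had an unadjusted p under 0.05.

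Among 26 other fatty acid and glycerolipid genes, 6 had an unadjusted p under 0.05, 5 of them below 0. GPAM, the acyltransferase that starts glycerolipid synthesis, read 5.05, 6.19 and 6.50 with C/EBPbeta-2 and 7.14, 7.80 and 7.96 in control, a difference of -1.72 (SE 0.42, limma adjusted p = 0.319). The groups did not overlap. ACSL1, which activates long-chain fatty acids, read 8.10, 9.19 and 8.37 against 10.65, 9.03 and 10.61, a difference of -1.54 (SE 0.50, limma adjusted p = 0.668), and its groups overlapped through control replicate 2. PPARG, the nuclear receptor of fat storage, differed by -0.99 (limma adjusted p = 0.691), ELOVL5, an elongase of polyunsaturated chains, by -0.63 (limma adjusted p = 0.796) and DGAT2, which makes triglyceride, by -0.54 (limma adjusted p = 0.957). PPARG was dim, at 4.07, 4.41 and 4.69 with C/EBPbeta-2 and 5.19, 4.90 and 6.04 in control, where array medians were 4.46 to 4.56. FADS3, a relative of FADS2, differed by 0.98 (limma adjusted p = 0.430). The median difference of the 26 was -0.13.

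**Figure D4:**
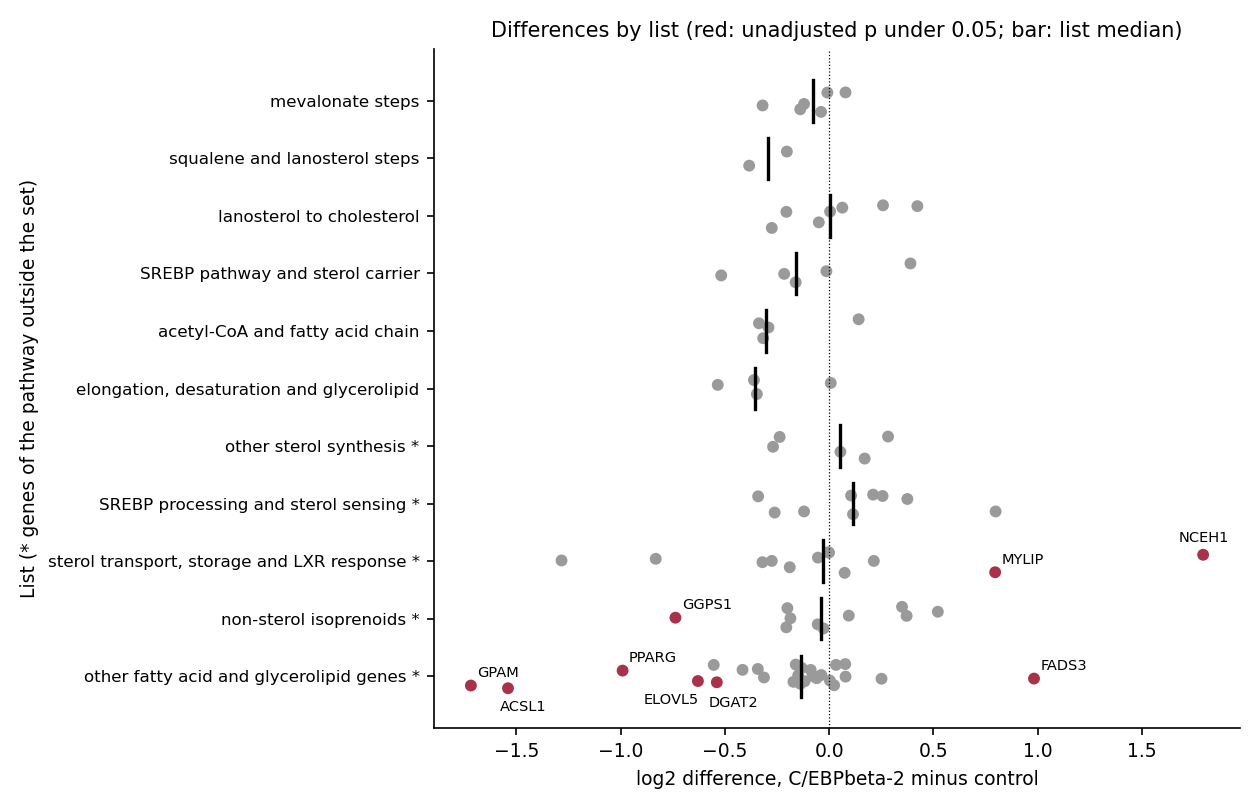
Log2 difference (C/EBPbeta-2 minus control) of each measured gene, by list, with the genes of the set in the upper 6 rows and genes around the pathway, marked with a star, in the lower 5, red where the unadjusted limma p was under 0.05 and with a bar at the list median. The upper 6 rows hold 0 red points and stay between -0.53 and 0.42, and the lower rows hold 9, from -1.72 for GPAM to 1.79 for NCEH1.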

How the data were processed

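Expression was measured on 6 arrays, 3 per group. Per the submitters' processing notes the authors used RMA, with version and settings not given in the sources used here. Per probe set and array, the deposited intensity values were on a linear scale (lowest 4.17, highest 17825, array medians 22.0 to 23.6) and were transformed to log2 with no pseudocount or further normalization. No detection calls were used, and the background under dim values is unknown.

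Of 54675 probe sets, 62 control probe sets were set aside. The probe annotation gave 1 symbol for 41091, several for 1801 and none for 11721. By gene ID, 41037 of the 41091 matched RefSeq, and 0 symbols changed. Each gene was read at its brightest probe set (19775 genes). Limma 3.58.1 in R 4.3.3 (lmFit, eBayes, no covariate, two-sided) tested C/EBPbeta-2 minus control with Benjamini-Hochberg adjustment over all genes, or over all 54613 probe sets where stated; calls had an adjusted p under 0.05. Intervals are 95% intervals of the difference. The scripts were tested on simulated data. Python 3.11.15, pandas 2.3.3 and matplotlib 3.10.9 were used.

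The members and lists were chosen with earlier results of these data known. By rule, values on every array are given for called members, the 3 largest differences of each role, SREBF1, SREBF2 and INSIG1, and of each further list the called genes and the 2 largest differences are named. Array values of HMGCS1, MVK, PMVK, STARD4, FASN and SCD, other probe sets, and MYLIP, NPC2, SOAT1, ABCA1, ELOVL5, FADS3, DGAT2 and PPARG were chosen after their values were seen. Same-numbered samples had correlated deviations in 1 of 3 pairs (-0.52, -0.60 and 0.34 for replicates 1, 2 and 3), so the numbers were not taken to pair them. Correlations were higher for C/EBPbeta-2 replicate 1 with control replicate 2 (0.65) and for C/EBPbeta-2 replicate 2 with control replicate 1 (0.66). The 18S control signal was 12.19 and 12.17 on C/EBPbeta-2 replicate 1 and control replicate 2. It was 10.09 and 10.33 on replicate 3 of each group, and 5.62 and 8.05 on C/EBPbeta-2 replicate 2 and control replicate 1. The labels do not say whether such arrays belong together. An alternative fit with a spike-in level term grouped C/EBPbeta-2 replicate 2 with control replicate 1. No fit paired C/EBPbeta-2 replicate 1 with control replicate 2. The number of arrays limits the precision.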

Additional observations from a re-analysis of the deposited data

How the results depend on the processing

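Over 21 alternatives (18 planned, and 3 chosen after seeing the data) limma called 0 members and 0 genes of the other lipid lists. The replicate block joined same-numbered arrays, which deviated in opposite directions for replicates 1 and 2 (correlations -0.52 and -0.60). It called 0 of all genes, so it could not show whether a member differed. The numbers of all genes called (18 rose, 36 fell) became 0 and 0 with the replicate block, 81 and 133 with array weights, 54 and 100 with the ACTB covariate, 5 and 10 with log2(value + 16), 9 and 14 when adjusted over all probe sets, 7 and 9 without the 2 low spike-in arrays and 0 and 1 without the 2 arrays of most 18S signal. Leaving out 1 array gave 2 to 17 that rose (fewest without control replicate 1) and 5 to 58 that fell (fewest without control replicate 3, most without control replicate 2), the median of all members -0.18 to -0.10, of fatty acid members -0.50 to -0.093 and of sterol enzymes -0.19 to 0.023. Of the 28 members, 17 had an interval within 2-fold in the main fit. This count was 22 with a spike-in level term and 22 with the ACTB covariate, and 12 without the 2 low spike-in arrays. Without _x_at and _s_at probe sets 19 members were left, 9 of them with an interval within 2-fold. The sign of the difference turned when 1 array was left out for 13 of 28 members, for IDI1 over -0.41 to 0.11, LPIN1 -0.68 to 0.12, MVD -0.32 to 0.18 and SREBF1 -0.36 to 0.041. It also turned without the 2 arrays of most 18S signal for IDI1 (0.10), MVD (0.065) and SREBF1 (0.052), and for MVD with array weights (0.19). The cause was not tested. No probe set has a measured background here, which limits what dim genes such as ABCG1, ABCA1 and PPARG can show.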

Other observations

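Probe sets of 1 gene did not always follow each other over the arrays. Of the 19 members with several probe sets, 13 had every difference below 0, 3 had every difference above 0 and 3 had both signs. EBP read 10.73, 10.21 and 10.68 with C/EBPbeta-2 and 9.95, 10.46 and 9.44 in control at 202735_at (difference 0.59), but 10.44, 7.18 and 7.84 against 8.97, 10.10 and 7.02 at 213789_at (difference -0.21), a far wider span of values. SCD was nearly level at 200832_s_at and spread widely at 211162_x_at, at 8.62, 7.15 and 7.23 against 7.26, 9.14 and 7.95 (difference -0.45). SQLE was highest on C/EBPbeta-2 replicate 2 and control replicate 2 at 209218_at, while at 213577_at it read 9.79, 8.84 and 10.18 against 9.13, 10.02 and 10.23, lowest on the 2 arrays of low spike-in signal.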
